A study of Rattus norvegicus with 9 samples.

Results

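The 6 genes described here belong to peptide and lipid signalling and were followed across 9 arrays of rat bladder RNA. They are the receptor genes Cnr1, Nmbr, Npffr1 and Gpr63 and the peptide genes Ghrl and Trh. They were selected on their measured log2 differences between the groups of this study, so their own values below are a description with no test. They make up 6 of the 11049 genes that could be tested, and each had at least 1 probe. The arrays came from female rats at 3 weeks. Of the arrays, 3 carried bladders after a sham operation without ligation, 3 carried bladders with partial outlet obstruction (pBOO), in which the upper urethra was tied over a catheter, and 3 carried obstructed bladders of rats given tolterodine, an antimuscarinic used against bladder overactivity. The labels name 5 bladder specimens per group and do not state whether an array holds 1 animal or a pool, so that spreads and p-values concern these arrays. Strain, age and tolterodine dose are not given in the labels.

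Cannabinoid receptor 1, the product of Cnr1, is a Gi-coupled receptor for the lipids anandamide and 2-arachidonoylglycerol and acts mainly on nerve endings, where it lowers transmitter release. Nmbr encodes the receptor for neuromedin B, a bombesin-like peptide that contracts smooth muscle, and Npffr1 encodes a Gi-coupled receptor for RF-amide peptides such as neuropeptide FF. Gpr63 encodes a receptor related to Gpr45 with no settled ligand, for which sphingosine 1-phosphate has been proposed. Ghrl encodes ghrelin, a hormone made mostly in the stomach that must be acylated before it binds its receptor, and Trh encodes the precursor of thyrotropin-releasing hormone, a tripeptide best known from the hypothalamus.

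Levels are log2 spot intensities minus the array's 75th percentile, so 0 marks the 75th percentile of that array, and a level ranks samples for 1 probe but not 1 gene against another. A probe counts as well above background on an array when the deposited flag says so for a share of at least 0.5 of its spots. The dimmest level so called lay between -6.33 and -5.54 on the 9 arrays. Where a group had no array well above background, its level is only bounded, and the fold is given as at least the ratio to that dimmest level or to the probe's own level where this was higher. Such a bound holds for this processing and not under every background correction. With normexp background correction, Cnr1 in pBOO read 1.11 above sham, less than its bound of 2.78 on the log2 scale. That correction was run with an offset of 50 intensity units added to every spot, which by itself shrinks differences between dim spots. The 75th percentile itself ran from 523 to 1441 intensity units, and 72.1% to 80.1% of spots were well above background.

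The direction of every difference rests on the titles of the arrays. The treatment protocol uses the letters S and C for obstruction and sham operation, while the arrays titled sham carry S and those titled pBOO carry C. With these names exchanged, the differences between pBOO and sham would change sign and the comparisons of tolterodine with pBOO and with sham would swap. The scan times in the file headers split the arrays into 3 scans. The second scan held all 3 pBOO arrays and sham 1, the first held sham 2, sham 3, tolterodine 1 and tolterodine 2, and the third held tolterodine 3 alone. No scan held both pBOO and tolterodine arrays, so these groups and the scan cannot be told apart. Sham 1 stood apart from the other sham arrays, with a Pearson r of 0.966 with sham 2 and 0.976 with sham 3 across genes, beside 0.994 between sham 2 and sham 3. Sham 1 also correlated at 0.973 with tolterodine 1 and 0.968 with tolterodine 3, which is as close as to sham 2. For each of the 6 genes, at least 1 difference from sham is therefore given with and without it.

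Cnr1 was high in both obstructed groups and under the background limit in sham. Its brighter probe, A_44_P1030258, is printed on each array 10 times. On the sham arrays its level was -6.65, -6.26 and -6.98, and 0 of 3 arrays were well above background. On the pBOO arrays it was -2.26, -3.46 and -2.85, and on the tolterodine arrays -3.54, -3.37 and -3.92, with all 3 arrays of each group well above background. Every obstructed array thus lay above every sham array, while the pBOO and tolterodine arrays overlapped. In intensity units the median of the 10 spots was 4.85 to 11.4 in sham, 95.7 to 297 in pBOO and 33.8 to 105 with tolterodine.

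The group means of Cnr1 were -6.63 ± 0.36 in sham, -2.86 ± 0.60 in pBOO and -3.61 ± 0.28 with tolterodine (SD, n = 3 each). Against sham this is at least 6.87-fold higher in pBOO and at least 4.08-fold higher with tolterodine. Tolterodine arrays differed from pBOO arrays by -0.75 (SE of the fit 0.31) on the log2 scale, by -0.45 without pBOO 1, by -1.05 without pBOO 2 and by -0.38 with normexp background correction. The raw difference between pBOO and sham was 3.77 with sham 1 and 3.76 without it. In the second scan, pBOO read 3.80 above sham 1, and in the first, tolterodine read 3.16 above sham. Since sham was under the background limit, these raw values show the direction and are no measured sizes. On the arrays where Cnr1 was detected, its 10 spots varied by an SD of 0.05 to 0.14 on the log2 scale, less than the SD between arrays of either obstructed group.

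A second Cnr1 probe, A_43_P11563, with 1 spot, gave the same order of groups at lower intensity. It read -7.61, -7.74 and -7.54 in sham, -4.29, -4.98 and -4.62 in pBOO and -5.77, -5.57 and -5.57 with tolterodine. All 3 pBOO arrays and 1 tolterodine array were well above background, against 0 in sham. By this probe Cnr1 was at least 2.01-fold higher in pBOO than in sham, and tolterodine arrays lay 1.01 below pBOO arrays with no overlap. On that last point the probes disagree, since on the brighter one pBOO 2 lay among the tolterodine arrays.

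The genes that make and break down cannabinoid lipids moved in both directions. Of 13 genes listed for this system besides Cnr1, 9 were tested. Over all genes, 20.8% were higher and 21.7% lower in pBOO than in sham (limma, adjusted p under 0.05), and in this list 2 were higher and 3 lower. Mgll, which hydrolyses 2-arachidonoylglycerol, stood at -3.99 ± 0.31 in sham, -2.47 ± 0.09 in pBOO and -3.70 ± 0.23 with tolterodine (SD, n = 3 each). It rose by 1.53 in pBOO (SE 0.18; limma adjusted p = 2.94e-04) and fell by 1.24 from pBOO to tolterodine (adjusted p = 8.48e-04). Cnrip1, which binds the tail of cannabinoid receptor 1, rose by 0.46 in pBOO (limma adjusted p = 0.046), a call lost in 12 of 20 alternatives of the processing.

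Other lipid enzymes were lower in the arrays titled pBOO. Abhd12, another hydrolase of 2-arachidonoylglycerol, fell by 0.60, and Naaa, which degrades palmitoylethanolamide, fell by 0.58 (limma adjusted p = 0.018 and 0.029). This call of Naaa was lost in 8 of 20 alternatives. Naaa rose by 0.71 from pBOO to tolterodine (limma adjusted p = 0.013). Dagla, the synthase of 2-arachidonoylglycerol, stood at -1.32 ± 0.04 in sham, -1.35 ± 0.15 in pBOO and -1.76 ± 0.14 with tolterodine (SD, n = 3 each). It was lower with tolterodine than in either other group, by 0.41 against pBOO and 0.44 against sham (limma adjusted p = 0.023 and 0.030). These calls were lost in 6 of 19 and 6 of 20 alternatives.

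Gpr18, a receptor proposed to bind N-arachidonoyl glycine, stood at -4.65 ± 0.61 in sham, -5.49 ± 0.25 in pBOO and -3.47 ± 0.06 with tolterodine (SD, n = 3 each, well above background on all 9 arrays). It fell by 0.85 in pBOO (limma adjusted p = 0.030), was 2.03 higher with tolterodine than in pBOO (SE 0.23; adjusted p = 3.70e-04) and 1.18 higher than in sham (adjusted p = 0.015). The call of Gpr18 in pBOO against sham was lost in 6 of 20 alternatives. The second cannabinoid receptor, Cnr2, passed in none of the 3 comparisons, at -4.75 ± 0.23, -4.47 ± 0.60 and -4.19 ± 0.47 in sham, pBOO and tolterodine (SD, n = 3 each). The capsaicin receptor gene Trpv1 was well above background on 0 of 9 arrays and Napepld, an enzyme of anandamide synthesis, on 1.

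Nmbr was high in the arrays titled pBOO and low in both other groups. Its single spot, A_64_P096209, read -1.96, -2.81 and -2.37 on the pBOO arrays, or 370, 147 and 184 intensity units. The sham arrays read -7.68, -5.04 and -5.70 (3.68, 24.9 and 11.3 units), and sham 2 alone was well above background. The tolterodine arrays read -5.19, -4.62 and -6.00 (24.7, 43.7 and 8.19 units), all well above background. All 3 pBOO arrays lay above the other 6, and the sham and tolterodine arrays overlapped.

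The means of Nmbr were -6.14 ± 1.37 in sham, -2.38 ± 0.42 in pBOO and -5.27 ± 0.69 with tolterodine (SD, n = 3 each). The difference between pBOO and sham was 3.76 (SE 0.63), a 13.5-fold ratio, and that between tolterodine and pBOO was -2.89, a 7.40-fold ratio. Tolterodine and sham differed by 0.87, less than the spread of the sham arrays. The sham level depends on sham 1: without it pBOO lay 2.99 above sham and tolterodine 0.10 above sham. Of the sham arrays, sham 2 alone was above background. All differences of Nmbr from sham, the 13.5-fold ratio among them, are therefore raw and no measured sizes. Within the first scan tolterodine lay 0.46 above sham. Within the second scan, where sham 1 is the only sham array, the raw difference was 5.30, which is no measured size because sham 1 was not above background.

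Of 4 other genes of bombesin-like peptides, 1 was tested. Nmb, which encodes neuromedin B, stood at -5.81 ± 0.47 in sham, -5.59 ± 0.07 in pBOO and -5.48 ± 0.43 with tolterodine (SD, n = 3 each), and was well above background on 1, 3 and 2 arrays. It passed in none of the 3 comparisons, with differences of 0.22, 0.11 and 0.33 for pBOO over sham, tolterodine over pBOO and tolterodine over sham (limma adjusted p = 0.54, 0.75 and 0.39). Gastrin-releasing peptide (Grp), its receptor (Grpr) and the orphan bombesin receptor Brs3 were well above background on 0 of 9 arrays.

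Npffr1 was measured mainly in the tolterodine group. The single spot of A_64_P142972 read -3.66, -3.51 and -4.29 on the tolterodine arrays (71.1, 94.6 and 26.8 units), all well above background. The pBOO arrays read -5.92, -6.41 and -6.10 (23.7, 12.2 and 13.9 units), with pBOO 1 alone well above background. The sham arrays read -5.95, -7.89 and -7.71 (12.2, 3.45 and 2.81 units), with 0 of 3 well above background. The tolterodine arrays lay above all others, and sham 1 lay among the pBOO arrays.

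The means of Npffr1 were -7.18 ± 1.07, -6.14 ± 0.25 and -3.82 ± 0.41 in sham, pBOO and tolterodine (SD, n = 3 each). The difference between tolterodine and pBOO was 2.32 (SE 0.47), a 5.01-fold ratio that rests on 1 of 3 pBOO arrays being above background. Against sham, Npffr1 was at least 3.53-fold higher with tolterodine. No fold is given between pBOO and sham, where the groups overlapped and the sign of the difference turned in 3 of 20 alternatives.

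Gpr63 ran close to Npffr1. The single spot of A_64_P036725 read -3.86, -3.64 and -4.99 on the tolterodine arrays (61.9, 86.2 and 16.4 units), all well above background. It read -5.95, -6.76 and -6.13 on the pBOO arrays (23.3, 9.54 and 13.6 units), with pBOO 1 alone well above background. On the sham arrays it read -7.00, -7.90 and -7.77 (5.89, 3.42 and 2.70 units), none well above background. Across the 9 arrays, the levels of Gpr63 and Npffr1 had a Pearson r of 0.974, as a description over arrays that share their groups and scans and of probes that lie at background in sham.

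The means of Gpr63 were -7.56 ± 0.49, -6.28 ± 0.42 and -4.17 ± 0.72 in sham, pBOO and tolterodine (SD, n = 3 each). Tolterodine lay 2.11 above pBOO (SE 0.39), a 4.32-fold ratio that rests on 1 of 3 pBOO arrays being above background. It lay at least 2.77-fold above sham. No fold is given between pBOO and sham, and the sign of that difference turned in 1 of 20 alternatives. Both receptors, and Trh below, were lowest among the tolterodine arrays on tolterodine 3, the array with the lowest 75th percentile and a scan of its own. Nmbr and the brighter probe of Cnr1 were likewise lowest on that array, while Ghrl was highest on it. Within the first scan, which leaves that array out, tolterodine read above sham by 4.22 for Npffr1, 4.08 for Gpr63 and 3.94 for Trh. Over all scans the raw differences were 3.37, 3.39 and 3.46 with sham 1 and 3.98, 3.67 and 3.48 without it. All of these are taken from sham levels under the background limit and are no measured sizes.

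**Figure D1:**
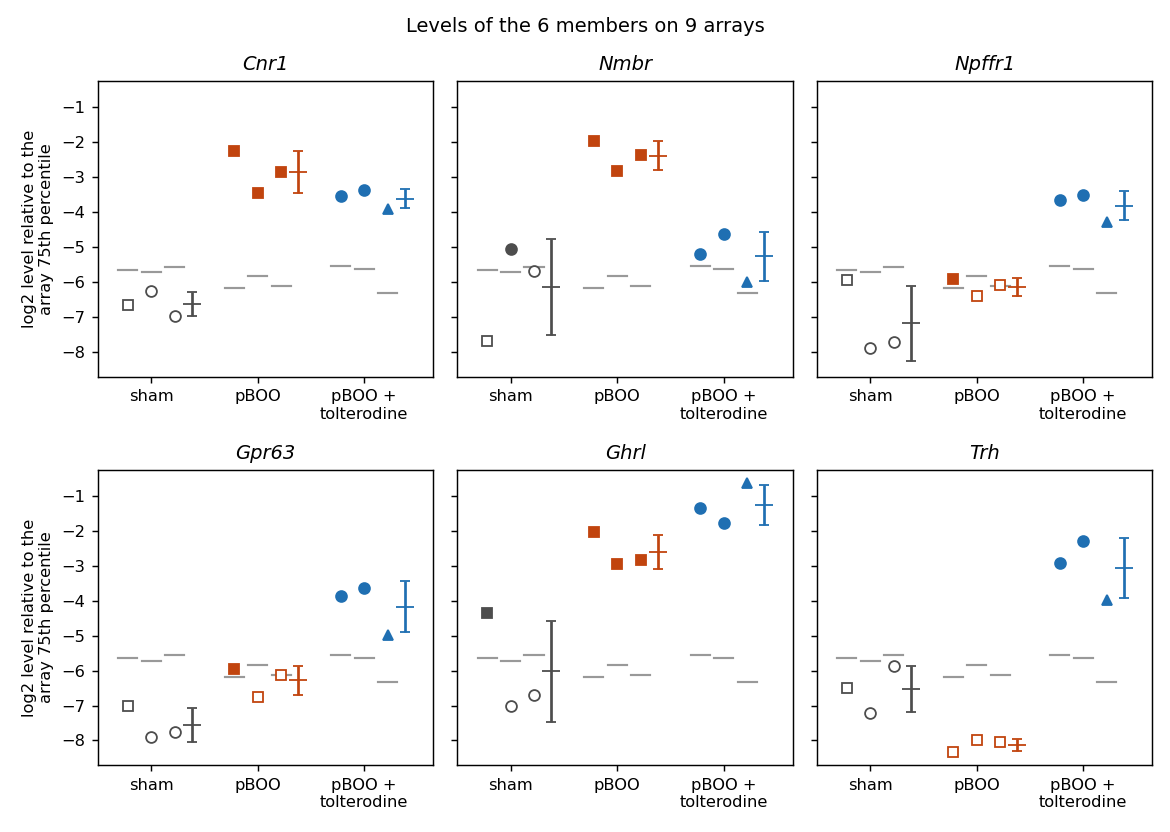
Log2 level relative to the array's 75th percentile (vertical axis) of the 6 genes in the 3 groups (horizontal axis), 1 point per array, for the brighter probe of Cnr1 and the only probe of the others. Filled points are well above background and open points are not; circles, squares and triangles are the first, the second and the third scan; grey ticks give each array's dimmest level well above background; the cross with bars at the right of each group is the mean ± SD (n = 3). Trh, Npffr1 and Gpr63 are filled in all tolterodine arrays and nearly always open elsewhere, Nmbr is highest in pBOO, and Cnr1 and Ghrl are high in both obstructed groups.

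Genes of RF-amide peptides were also followed. Of 9 genes listed besides Npffr1, 5 were tested. Npff, the precursor of neuropeptide FF, stood at -2.91 ± 0.14 in sham, -2.03 ± 0.13 in pBOO and -2.37 ± 0.09 with tolterodine (SD, n = 3 each). It rose by 0.88 in pBOO (SE 0.12; limma adjusted p = 6.84e-04) and by 0.54 with tolterodine against sham (adjusted p = 0.014), while tolterodine over pBOO, at -0.34, did not pass (adjusted p = 0.053). The call of Npff with tolterodine against sham was lost in 6 of 20 alternatives. Prlh, prolactin-releasing hormone, fell by 0.38 in pBOO and rose by 0.36 from pBOO to tolterodine (limma adjusted p = 0.012 and 0.017).

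Kiss1r, the kisspeptin receptor, stood at -5.51 ± 0.41, -5.69 ± 0.18 and -4.77 ± 0.15 in sham, pBOO and tolterodine (SD, n = 3 each). It was 0.92 higher with tolterodine than in pBOO and 0.74 higher than in sham (limma adjusted p = 0.0073 and 0.032). These calls were lost in 3 of 19 and 7 of 20 alternatives. Npffr2, the other neuropeptide FF receptor, was well above background on 1 pBOO and 1 tolterodine array.

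Relatives of Gpr63 and genes of sphingosine 1-phosphate signalling formed another list. Of 9 listed, 5 were tested. S1pr1, a receptor abundant in endothelium, stood at -1.49 ± 0.30 in sham, 0.23 ± 0.54 in pBOO and -0.89 ± 0.01 with tolterodine (SD, n = 3 each), a rise of 1.72 in pBOO (SE 0.26; limma adjusted p = 9.92e-04). S1pr1 then fell by 1.11 from pBOO to tolterodine (limma adjusted p = 0.0084). S1pr2 rose by 0.41 in pBOO and by 0.59 with tolterodine against sham (limma adjusted p = 0.038 and 0.016), calls lost in 11 and 3 of 20 alternatives. Sphk1, which makes sphingosine 1-phosphate, fell by 1.103 in pBOO and rose by 1.47 from pBOO to tolterodine (limma adjusted p = 0.0040 and 9.61e-04). Gpr45, the nearest relative of Gpr63, was well above background on 1 pBOO and 1 tolterodine array.

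Ghrl was highest with tolterodine, lower in pBOO and near background on 2 of 3 sham arrays. Probe A_44_P420046, printed 10 times, read -1.35, -1.78 and -0.63 on the tolterodine arrays, -2.04, -2.95 and -2.82 on the pBOO arrays and -4.36, -7.00 and -6.69 on the sham arrays. All 6 obstructed arrays and sham 1 were well above background. The groups did not overlap in any of the 3 comparisons, and the narrowest gap was 0.26, between pBOO 1 and tolterodine 2. In intensity units the medians over spots were alike on the tolterodine arrays, at 351, 307 and 336 units, while those arrays' 75th percentiles ran from 523 to 1076.

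The means of Ghrl were -6.02 ± 1.44 in sham, -2.60 ± 0.49 in pBOO and -1.25 ± 0.58 with tolterodine (SD, n = 3 each). The raw ratio to sham was 10.7-fold in pBOO (3.42 on the log2 scale, SE 0.64) and 27.2-fold with tolterodine (4.77). Tolterodine lay 2.55-fold (1.35) above pBOO. Sham 1 was the only sham array with Ghrl above background, so the ratios to the sham mean include unmeasured levels and are no measured sizes. Within the second scan, against sham 1 alone, pBOO lay 1.76 higher. Without sham 1 the raw differences from sham were 4.25 in pBOO and 5.60 with tolterodine, and within the first scan tolterodine lay 5.28 above sham. These last 3 values are taken against sham 2 and sham 3, which were not above background, so they show the direction and are no measured sizes.

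Of 3 genes that act with ghrelin, 1 was tested. Mboat4, the enzyme that acylates ghrelin, stood at -4.90 ± 0.10 in sham, -4.96 ± 0.13 in pBOO and -5.59 ± 0.43 with tolterodine (SD, n = 3 each; well above background on 3, 3 and 1 arrays). It fell by 0.64 from pBOO to tolterodine and by 0.70 against sham (limma adjusted p = 0.031 and 0.035), calls lost in 7 of 19 and 8 of 20 alternatives. The ghrelin receptor gene Ghsr was well above background on 1 pBOO and 1 tolterodine array.

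Trh was detected in the tolterodine group alone. The single spot of A_44_P332790 read -2.91, -2.28 and -3.98 on the tolterodine arrays, or 120, 221 and 33.1 intensity units, all well above background. The sham arrays read -6.49, -7.20 and -5.87 (8.41, 5.57 and 10.03 units) and the pBOO arrays -8.33, -7.99 and -8.05 (4.48, 4.05 and 3.59 units), with 0 of 6 well above background. The means were -6.52 ± 0.67, -8.12 ± 0.18 and -3.06 ± 0.86 in sham, pBOO and tolterodine (SD, n = 3 each). With the processing used here, Trh was at least 7.91-fold higher with tolterodine than in pBOO and at least 5.98-fold higher than in sham. With normexp background correction these differences were 1.54 and 1.04 on the log2 scale, less than the bounds of 2.98 and 2.58. The pBOO arrays read below the sham arrays, but with both groups under background no fold is given.

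Of 4 genes that act with thyrotropin-releasing hormone, 1 was tested. Pgpep1, a peptidase that removes the pyroglutamate end of such peptides, stood at 3.25 ± 0.39 in sham, 2.50 ± 0.10 in pBOO and 2.67 ± 0.12 with tolterodine (SD, n = 3 each) and fell by 0.75 in pBOO (SE 0.19; limma adjusted p = 0.011). The receptor gene Trhr and the degrading ectoenzyme gene Trhde were well above background on 0 of 9 arrays.

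RefSeq promoter sequences (assembly GRCr8) were found for 5 of the 6 genes, all but Cnr1. Those of Trh, Npffr1 and Gpr63 are shown because these genes were well above background on all 3 tolterodine arrays and on at most 1 of the others. Each line gives the 250 bases before the annotated start, read 5′ to 3′ on the gene's strand. Capitals mark matches on either strand to AGGTCA, a half-site of nuclear receptors such as the thyroid hormone receptor, to TGACG, the core of the cyclic AMP response element, and to TATAA, the core of the TATA box.
Trh, chr4:126301763-126302012, minus strand: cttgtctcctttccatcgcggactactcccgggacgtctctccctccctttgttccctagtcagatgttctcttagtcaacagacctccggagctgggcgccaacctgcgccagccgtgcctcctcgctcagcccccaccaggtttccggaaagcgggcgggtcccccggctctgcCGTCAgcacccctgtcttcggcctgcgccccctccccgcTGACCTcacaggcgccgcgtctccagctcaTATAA
Npffr1, chr20:30082354-30082603, plus strand: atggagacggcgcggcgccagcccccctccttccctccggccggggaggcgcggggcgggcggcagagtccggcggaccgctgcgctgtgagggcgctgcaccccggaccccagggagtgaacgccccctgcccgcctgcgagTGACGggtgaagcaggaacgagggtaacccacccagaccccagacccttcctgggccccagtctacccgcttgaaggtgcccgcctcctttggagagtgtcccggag
Gpr63, chr5:43477780-43478029, plus strand: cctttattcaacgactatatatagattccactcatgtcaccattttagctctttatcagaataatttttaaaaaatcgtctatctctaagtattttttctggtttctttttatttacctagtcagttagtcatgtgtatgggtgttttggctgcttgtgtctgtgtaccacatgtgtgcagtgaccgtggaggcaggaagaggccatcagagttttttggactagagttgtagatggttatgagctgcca

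The Trh window holds AGGTCA on the opposite strand, 35 to 30 bases before the start, TGACG on the opposite strand, 74 to 70 bases before it, and TATAA in the last 5 bases. The Npffr1 window holds TGACG at 107 to 103 bases before the start, and the Gpr63 window holds none of these motifs. Of the windows not shown, that of Nmbr holds AGGTCA on the opposite strand, 177 to 172 bases before the start, and that of Ghrl holds none. Of 33469 promoter windows of the same length, 14.1% hold AGGTCA, 18.2% hold TGACG and 24.0% hold TATAA. The windows also differ in composition, with 65.2% G and C in Trh, 73.2% in Npffr1 and 38% in Gpr63, beside a median of 51.2% over all windows. These matches describe the letters only.

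Genes whose 9 levels ran most like each member were named by Pearson r over 10100 other genes, as a description without a test, since the arrays share groups and scans. For Cnr1 they were Ralgdsl1 (r = 0.997), Sqor (0.987) and Peli2 (0.984), and for Nmbr they were Sgcb (0.997) and Cdh2 (0.995). For Npffr1 they were Slc4a7 (0.989), Il11 (0.986) and Il1rl1 (0.986), and for Gpr63 they were Rapgef5 (0.993), Spopfm2l2 (0.986) and Fhip2b (0.984). For Ghrl they were Nr2f2 (0.992), Adgrl2 (0.990) and Vps35l (0.989), and for Trh they were Cd163, a macrophage scavenger receptor (0.987), Cd3d, a chain of the T cell receptor complex (0.986), and Slfnl1 (0.986). The r of each member rests partly on levels not above background, and that of Trh does so on all sham and pBOO arrays. Among the members, Ghrl correlated at 0.874 with Npffr1, 0.854 with Gpr63 and 0.816 with Cnr1, and Nmbr at 0.757 with Cnr1 and -0.49 with Trh.

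The enzymes that cut and finish peptide precursors formed a list of their own. Of 15 listed, 12 were tested: 2 rose and 1 fell in pBOO against sham, 4 rose and 2 fell from pBOO to tolterodine, and 2 rose and 0 fell with tolterodine against sham. Over all genes, 26.0% were higher and 15.3% lower with tolterodine than in pBOO, and 17.8% were higher and 6.59% lower with tolterodine than in sham. Qpct, the cyclase that gives thyrotropin-releasing hormone its pyroglutamate end, stood at -4.37 ± 0.11, -2.40 ± 0.10 and -3.54 ± 0.15 in sham, pBOO and tolterodine (SD, n = 3 each). It rose by 1.97 in pBOO (SE 0.12; limma adjusted p = 1.47e-05) and by 0.83 with tolterodine against sham (adjusted p = 0.0022), and fell by 1.14 from pBOO to tolterodine (adjusted p = 1.43e-04). Its Golgi relative Qpctl fell by 0.56 in pBOO and rose by 0.70 from pBOO to tolterodine (limma adjusted p = 0.015 and 0.0057). The call of Qpctl in pBOO was lost in 5 of 20 alternatives.

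Cpe, a carboxypeptidase that trims precursors in secretory granules, stood at -0.34 ± 0.29, 0.77 ± 0.12 and -0.68 ± 0.04 in sham, pBOO and tolterodine (SD, n = 3 each). It rose by 1.11 in pBOO and fell by 1.45 from pBOO to tolterodine (limma adjusted p = 6.46e-04 and 1.45e-04). The prohormone convertase gene Pcsk1 was 1.07 higher and the convertase gene Furin 1.02 higher with tolterodine than in pBOO (limma adjusted p = 0.0047 and 0.0050). Pcsk1 also passed against sham at 0.68 (limma adjusted p = 0.04998), a call lost in 15 of 20 alternatives. Mme, the peptide-degrading neprilysin, was at least 2.01-fold higher with tolterodine than in pBOO (limma adjusted p = 0.042). Detection was on 2 tolterodine and 0 pBOO arrays, the call was lost in 9 of 19 alternatives, and in 1 more, with the scan as a fixed block, the difference turned to -0.28.

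**Figure D2:**
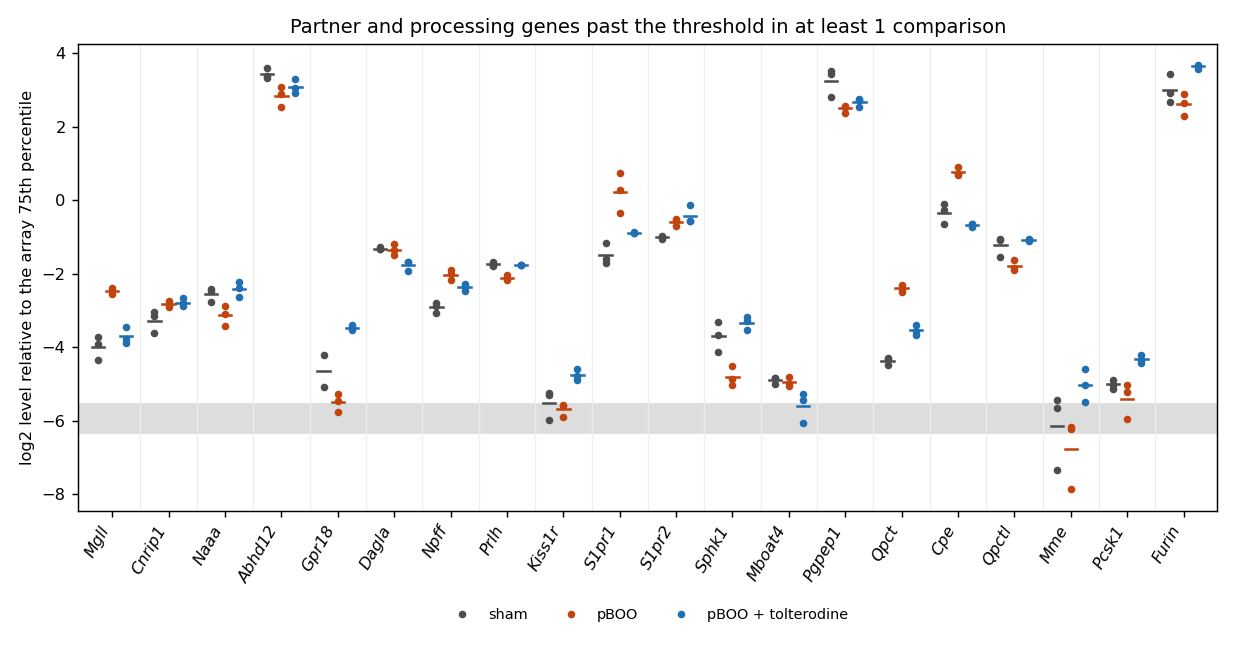
Log2 level relative to the array's 75th percentile (vertical axis) of 20 partner and processing genes past the threshold in at least 1 comparison (horizontal axis), 1 point per unflagged array, coloured by group; short lines are group means. The grey band spans the dimmest levels well above background on the 9 arrays, -6.33 to -5.54. Mgll, S1pr1, Cpe and Qpct are highest in pBOO, while Gpr18, Kiss1r, Pcsk1 and Furin are highest with tolterodine.

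Other peptide genes were examined in a list of 64, of which 33 were tested, 23 were too dim and 7 had no probe of that name. In pBOO against sham 8 were higher and 4 lower, from pBOO to tolterodine 16 were higher and 2 lower, and with tolterodine against sham 12 were higher and 2 lower. The median differences were 0.05, 0.54 and 0.58, beside -0.04, 0.11 and 0.09 over all genes tested. Vgf, a granin precursor, was at least 2.46-fold higher in pBOO than in sham (limma adjusted p = 0.0020) and was 1.02 lower with tolterodine than in pBOO (adjusted p = 0.036). The latter call was lost in 8 of 19 alternatives. Npb, neuropeptide B, was at least 1.78-fold higher in pBOO than in sham and at least 2.03-fold lower with tolterodine than in pBOO (limma adjusted p = 3.46e-04 and 1.34e-04). Pthlh, a relative of parathyroid hormone that relaxes smooth muscle, rose by 1.28 in pBOO and by 1.11 with tolterodine against sham (limma adjusted p = 0.0015 and 0.0068).

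Penk, the enkephalin precursor, showed the largest fall in pBOO among the tested peptide genes. It stood at -0.64 ± 0.23, -2.31 ± 0.31 and -0.49 ± 0.25 in sham, pBOO and tolterodine (SD, n = 3 each). It fell by 1.68 in pBOO and rose by 1.82 from pBOO to tolterodine (limma adjusted p = 3.27e-04 and 1.89e-04). The tachykinin Tac3, which encodes neurokinin B, fell by 1.01, Npw, neuropeptide W, by 1.13, and Calcb, a calcitonin gene-related peptide, by 0.62 in pBOO (limma adjusted p = 4.13e-04, 0.0024 and 0.033). The call of Calcb was lost in 8 of 20 alternatives. The dynorphin precursor Pdyn was at least 1.33-fold higher with tolterodine than in pBOO (limma adjusted p = 0.041) and was above background on 2 tolterodine and 0 pBOO arrays. Its call was lost in 7 of 19 alternatives.

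Uts2, the vasoconstrictor urotensin 2, stood at -0.41 ± 0.11, -0.28 ± 0.14 and 1.00 ± 0.25 in sham, pBOO and tolterodine (SD, n = 3 each), a rise of 1.28 over pBOO and 1.42 over sham (limma adjusted p = 2.60e-04 and 6.26e-04). Hcrt, orexin, rose with tolterodine by 1.39 against sham and 1.30 against pBOO (limma adjusted p = 0.0090 and 0.0060). Edn1, endothelin 1, stood at -4.64 ± 0.46, -3.68 ± 0.23 and -3.10 ± 0.38 in sham, pBOO and tolterodine (SD, n = 3 each). With tolterodine it was 1.54 above sham (limma adjusted p = 0.0046), while its 0.59 over pBOO did not pass (adjusted p = 0.10). Apln, apelin, was at least 1.27-fold higher with tolterodine than in sham (limma adjusted p = 0.0013). In pBOO it passed at a raw 1.69 over sham (limma adjusted p = 0.0011), which is no measured size because sham was under the background limit. No bound above 1 can be given, and normexp background correction turned the sign to -0.06. Nmu, neuromedin U, fell by 1.27 and Tac3 by 0.41 with tolterodine against sham (limma adjusted p = 0.015 and 0.046). The calls of Nmu and Tac3 were lost in 4 and 12 of 20 alternatives.

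Peptide receptors numbered 75 in the list, of which 40 were tested, 30 fell short of the detection filter, 2 had outlier spots on too many arrays and 3 had no probe of that name. In pBOO against sham 15 were higher and 5 lower, from pBOO to tolterodine 11 were higher and 12 lower, and with tolterodine against sham 9 were higher and 0 lower. The median differences were 0.31, 0.19 and 0.34. The tachykinin receptors were high in pBOO and low in both other groups. Tacr2, the neurokinin A receptor that contracts detrusor muscle, stood at -1.33 ± 0.89, 0.77 ± 0.39 and -1.84 ± 0.22 in sham, pBOO and tolterodine (SD, n = 3 each). It rose by 2.10 in pBOO (SE 0.40; limma adjusted p = 0.0033), or by 1.60 without sham 1, and fell by 2.61 from pBOO to tolterodine (adjusted p = 0.0011). Tacr3 was at least 3.37-fold higher in pBOO than in sham and at least 3.79-fold lower with tolterodine than in pBOO (limma adjusted p = 9.87e-04 and 4.74e-04).

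Rxfp1, the relaxin receptor, was at least 1.34-fold higher in pBOO than in sham and at least 1.54-fold lower with tolterodine than in pBOO (limma adjusted p = 0.0011 and 0.0047), and its difference from sham was -0.0070 with normexp background correction. Calcrl, the receptor chain for adrenomedullin and calcitonin gene-related peptide, was at least 3.05-fold higher in pBOO and at least 2.07-fold higher with tolterodine than in sham (limma adjusted p = 3.99e-05 and 7.16e-04). Ntsr2, a neurotensin receptor, stood at 1.30 ± 0.07, 2.30 ± 0.37 and 0.14 ± 0.92 in sham, pBOO and tolterodine (SD, n = 3 each) and fell by 2.15 from pBOO to tolterodine (limma adjusted p = 0.0029).

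Receptors lower in pBOO than in sham included the inducible kinin receptor Bdkrb1, at -1.15, the urocortin receptor Crhr2, at -0.98, the opioid receptor Oprm1, at -0.84, and the somatostatin receptor Sstr3, at -0.62 (limma adjusted p = 0.011, 0.0019, 0.011 and 0.030). The call of Sstr3 was lost in 9 of 20 alternatives. Oprm1 was then 1.16 higher with tolterodine than in pBOO (limma adjusted p = 0.0026). Ramp3, a partner chain of Calcrl, and Cckbr, the gastrin receptor, each rose by 1.45 from pBOO to tolterodine (limma adjusted p = 5.23e-04 and 5.53e-04), and the galanin receptor Galr3 rose by 1.06 (adjusted p = 0.021). The call of Galr3 was lost in 6 of 19 alternatives. Against sham, the tolterodine arrays were higher in Cckbr by 1.64 and in the endothelin receptor Ednra by 1.21 (limma adjusted p = 9.76e-04 and 0.0022). The orexin receptor Hcrtr1 was at least 1.65-fold higher with tolterodine than in sham (limma adjusted p = 0.017), a call lost in 5 of 20 alternatives.

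**Figure D3:**
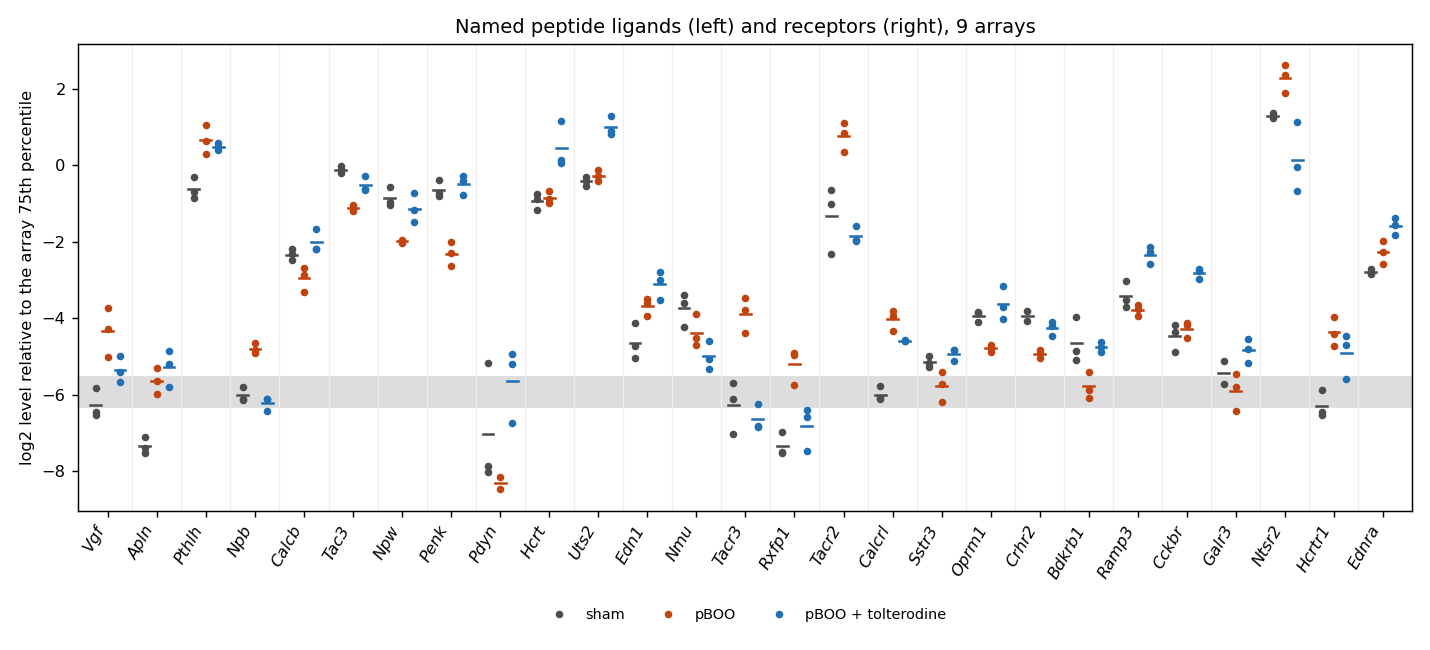
Log2 level relative to the array's 75th percentile (vertical axis) of 13 peptide genes, from Vgf to Nmu, and 14 receptor genes, from Tacr3 to Ednra (horizontal axis), chosen as the 4 highest and 4 lowest differences past the threshold per comparison; 1 point per unflagged array, coloured by group, with lines at group means. The grey band spans the dimmest levels well above background, -6.33 to -5.54. Tacr2, Tacr3 and Ntsr2 are highest in pBOO, Penk is lowest there, and Uts2, Hcrt and Cckbr are highest with tolterodine.

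Over all 196 listed genes besides the members, 107 were tested, 70 fell short of the detection filter, 15 had no probe of that name, 3 had outlier spots on too many arrays and 1 had no current symbol. In pBOO against sham 30 were higher and 16 lower, from pBOO to tolterodine 36 were higher and 20 lower, and with tolterodine against sham 27 were higher and 4 lower. These are 28.0% and 14.95%, 33.6% and 18.7%, and 25.2% and 3.74% of the tested genes, beside the shares over all genes given above. Within the second scan, 32 listed genes passed between pBOO and sham, of which 27 were among the 46 from all arrays. Within the first scan, 54 passed between tolterodine and sham, of which 30 were among the 31. In the second scan the spread comes from the pBOO arrays alone. Among the calls not made within the second scan were those of Abhd12, Naaa, Prlh, S1pr1, S1pr2, Pgpep1, Qpctl, Vgf, Pthlh, Calcb and Sstr3. The one missing within the first scan was Gpr18, which lacked a value on an array of that scan and was not tested there.

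Markers of the cell types of the bladder wall also moved between the groups. Over all genes, 20.8% were higher and 21.7% lower in pBOO than in sham. From pBOO to tolterodine these shares were 26.0% and 15.3%, and with tolterodine against sham 17.8% and 6.59%. In whole tissue, fewer cells of a type and less RNA per cell cannot be told apart. Of 9 tested smooth muscle markers, 8 rose in pBOO against sham and 8 fell from pBOO to tolterodine, as Tacr2 and Tacr3 did, and Nmbr too was highest in pBOO; 4 were higher with tolterodine than in sham. The log2 of the summed level of 7 of these markers was 5.85 to 6.23 in sham, 6.53 to 6.72 in pBOO and 5.92 to 6.58 with tolterodine. Of 9 macrophage markers, 7 fell in pBOO, 8 rose from pBOO to tolterodine and 9 were higher with tolterodine than in sham. Trh was likewise highest with tolterodine, while its levels in pBOO and sham were both under the background limit. Their summed level (8 markers) was 4.73 to 5.13 in sham, 3.82 to 3.95 in pBOO and 5.98 to 6.19 with tolterodine.

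All 6 tested neutrophil markers fell in pBOO and rose from pBOO to tolterodine, with 2 higher with tolterodine than in sham. Their summed level was 0.92 to 1.60 in sham, -1.99 to -1.70 in pBOO and 2.11 to 2.34 with tolterodine. The neutrophil receptor genes Cxcr2 and Csf3r were well above background on 0 pBOO arrays and on all 3 tolterodine arrays. Of 6 lymphocyte markers, 1 fell in pBOO, 4 rose from pBOO to tolterodine and 2 were higher with tolterodine than in sham. Of 7 urothelial markers, 3 fell in pBOO, and 3 rose and 1 fell from pBOO to tolterodine. Against sham, 1 urothelial marker was higher and 3 were lower with tolterodine. Of 6 endothelial markers 4 rose in pBOO against sham and 3 fell from pBOO to tolterodine, the groups in which S1pr1 was high and lower. With tolterodine, 3 endothelial markers were higher than in sham. Of 7 fibroblast markers 4 rose in pBOO, and 1 rose and 2 fell from pBOO to tolterodine. Against sham, 4 fibroblast markers were higher and 1 was lower with tolterodine. The part of these cell types in the levels of the 6 genes was not tested.

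Markers of nerve cells were few. Of 12 listed, 4 were tested, and Elavl3, Elavl4 and Syn1 were well above background on 0 of 9 arrays, Snap25 on 1 and Nefl on 2. Stmn2 fell by 4.87 and Prph by 2.16 from pBOO to tolterodine (limma adjusted p = 0.0073 and 0.018), while Tubb3 rose by 2.08 (adjusted p = 2.55e-04). The summed level of the 4 genes was -0.14 to 0.89 in sham, 1.04 to 1.44 in pBOO and -0.07 to 0.07 with tolterodine. Of 6 neuroendocrine markers, Chga was well above background on 1 array and Chgb on 0. Ddc rose by 2.60 in pBOO against sham (limma adjusted p = 0.013), with sham arrays at -7.64, -4.46 and -5.24, of which sham 1 was the lowest.

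**Figure D4:**
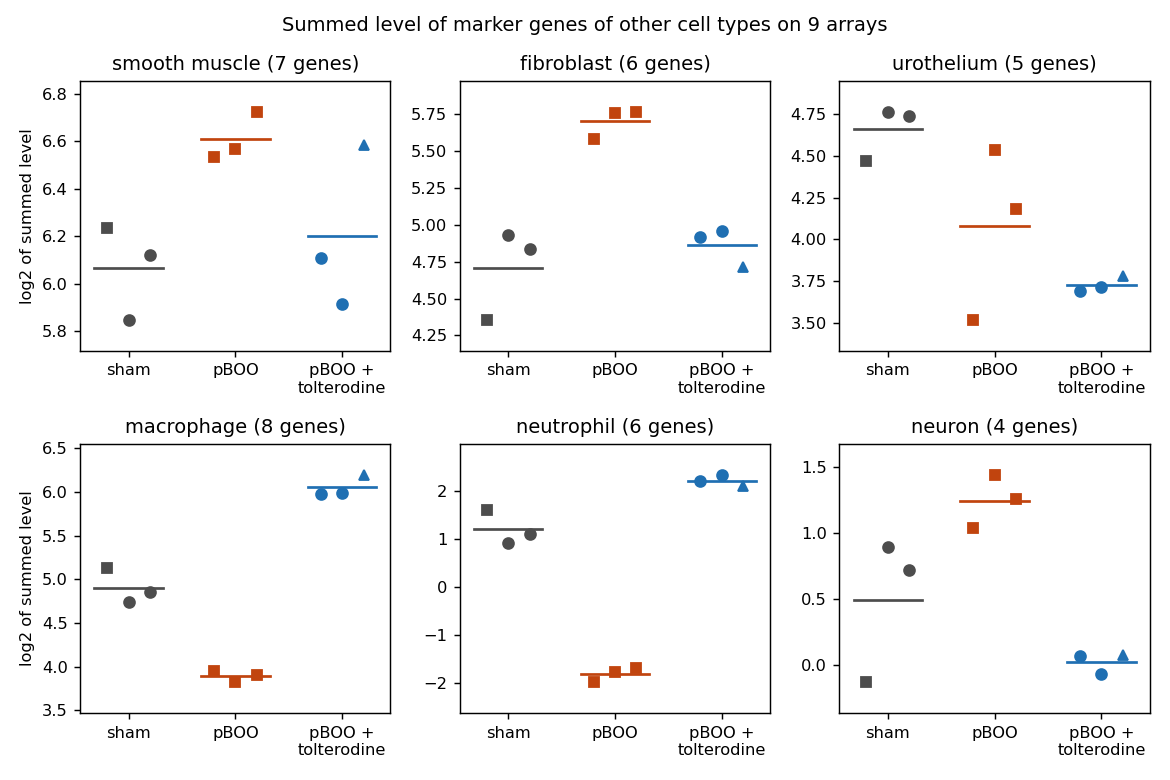
Log2 of the summed level of marker genes of 6 cell types (vertical axis, relative to the array's 75th percentile, a separate scale in each panel) in the 3 groups (horizontal axis); 1 point per array with a line at the group mean, and circles, squares and triangles for the first, the second and the third scan. Smooth muscle and fibroblast sums are highest on average in pBOO, and macrophage and neutrophil sums are highest with tolterodine and lowest in pBOO.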

How the data were processed

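RNA of 9 bladder samples was labelled with Cy3 and hybridised to one-colour Agilent arrays. The deposited intensity is the processed signal, which per the file headers is background-subtracted and spatially detrended but not normalized between arrays. Feature Extraction is version 11.0.1.1 per the file headers and 9.1 per the submitters' processing notes. The deposited spot flags for outliers and for signal well above background were also used.

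From these values, log2 intensity minus each array's 75th percentile over 42877 non-control spots was computed. Outlier spots were left out and spots of a probe averaged. Of 30367 probes, 18005 were named through their accession and RefSeq. A named probe was kept if it was well above background on at least 3 of 9 arrays, with at least 2 usable arrays per group. Each gene was represented by the brightest of its kept probes, which left 11049 genes. They were tested two-sided with limma 3.58.1 in R 4.3.3, with 1 coefficient per group over all 9 arrays, Benjamini-Hochberg adjustment over all genes and a threshold of 0.05. The fit had 6 residual and 2.78 prior degrees of freedom, and 3 arrays per group limit the precision. The script was tested on simulated data.

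The members and gene lists were chosen with earlier results of these data known. The text names all members, every tested family or processing gene past the threshold and the 4 most changed peptide genes and receptors in each direction of each comparison. Dim partners, genes that did not pass, Pthlh against sham and the marker genes were named besides, after their values were seen. Some marker genes and genes with like patterns are not reported here. Alternatives covered background correction, scaling, the filter on dim probes, scan and replicate blocks, and each array left out. Lost calls are counted beside the least stable named genes, and calls given without such a count were not all kept in every alternative.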

Additional observations from a re-analysis of the deposited data

How the results depend on the processing

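Few array numbers and low intensities limit these results, since most members lie near background in at least 1 group. There, log2 differences depend on the background correction. The normexp setting, with its offset of 50 units, shrinks differences between dim spots, so its values do not decide how large these differences are. With normexp, pBOO minus sham was 1.11 for Cnr1, 1.30 for Nmbr, -0.24 for Npffr1, -0.17 for Gpr63, 1.12 for Ghrl and -0.50 for Trh. Tolterodine minus pBOO was -1.22 for Nmbr, 0.90 for Npffr1, 0.82 for Gpr63 and 1.54 for Trh. Tolterodine minus sham was 0.73 for Cnr1, 0.66 for Npffr1, 0.65 for Gpr63, 2.18 for Ghrl and 1.04 for Trh. With the scan as a fixed block, pBOO minus sham was 5.30 for Nmbr, -0.19 for Npffr1 and 1.76 for Ghrl, as within the second scan. Tolterodine minus pBOO was then -4.84 for Nmbr, 4.41 for Npffr1, 3.36 for Gpr63 and 3.52 for Ghrl, and 3.52 for Npffr1 with the scan as a random block. The other member differences kept their sign in every alternative, and these blocks compare pBOO with tolterodine only through the sham arrays.

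Between pBOO and sham, 3026 genes passed with normexp and 2798 within the second scan, and 24 listed genes with normexp. Between tolterodine and pBOO, 3000 genes and 29 listed genes passed with normexp. Between tolterodine and sham, 961 passed with normexp, 4398 and 4279 with the scan as a fixed and a random block, and 5672 within the first scan, beside 11 listed genes with normexp and 54 within the first scan. Leaving out 1 array gave 1412 to 3785 genes and 19 to 38 listed genes there, with 1611 genes without sham 2, 1412 without sham 3, 1569 without tolterodine 1 and 1461 without tolterodine 2. The listed genes numbered 19, 20 and 19 without sham 3, tolterodine 1 and tolterodine 2.

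Scaling by the array median gave 1990 higher and 2918 lower genes in pBOO, against 2295 and 2398, and 1455 and 1460 for tolterodine over sham, against 1965 and 728. It moved the median of all genes in the latter comparison from 0.09 to -0.05. Quantile scaling gave 1411 and 1016 there, and 2493 and 2243 for tolterodine over pBOO, against 2872 and 1692. Of 1510 values of named list genes under alternatives, 1297 kept direction and call, 210 lost the call and 3 changed sign: Apln (-0.064) and Rxfp1 (-0.0070) in pBOO with normexp, and Mme (-0.28) from pBOO to tolterodine with the scan as a fixed block. With normexp 37 of 77 lost the call. Among them were Tacr3, Calcrl, Npb and Vgf in pBOO against sham, whose folds are given above as bounds. The offset of 50 units shrinks differences between dim spots, and its part in the lost calls was not tested.

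The labels give the groups the same replicate numbers. Arrays of the same number correlated at -0.080 to 0.178 in their deviations from the group means, and arrays of different numbers at -0.181 to 0.162. With 3 arrays per group, these values cannot settle whether the numbers pair the samples. With the replicate number as a block, 4346, 4225 and 2332 genes and 46, 54 and 31 listed genes passed in the 3 comparisons.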
